A study of Mus musculus with 7 samples.

Results

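The genes described here encode the machinery with which the osteoclast (OC) dissolves bone. They are Ctsk, Acp5, Mmp9 and Mmp14 for the breakdown of matrix, Car2, Tcirg1, Clcn7 and Ostm1 for the secretion of acid, and Plekhm1 and Snx10 for the traffic of the vesicles that carry both. Members are the PU.1 and MITF ChIP-Seq peaks whose center lies in 1 of these 10 genes or within 50 kb of either end (mouse mm9 coordinates). This gave 458 of the 238652 peaks of 6 lists, which merged by overlap into 180 sites. The lists come from bone marrow cells of C57BLACK6 mice aged 4 to 6 weeks, all kept in 50 ng per mL CSF1, with a culture of 3 days given for each. The paper describes 3 days in CSF1 and then replating in CSF1 with RANKL. Cells given RANKL may therefore differ from precursors in replating and time in culture too. PU.1 and MITF were each precipitated with 5 µg of antibody from myeloid precursors (MPs, CSF1 only), from cells given 100 ng per mL RANKL for 36 h and from OCs given the same dose for 72 h, and a non-specific IgG library was made from MPs. Each condition has 1 library, so that no difference between times has a replicate check and every interval and p below covers counting error only. The labels do not say how many mice each library came from. The lists hold positions and no expression values, so the labelled cell types were not checked against marker genes.

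An OC seals off a patch of bone, acidifies the space beneath it to dissolve the mineral, and releases proteases that work in acid to digest the collagen left behind. Loss of several of these genes, among them Tcirg1, Clcn7, Ostm1 and Snx10, causes osteopetrosis, in which OCs are present but resorb bone poorly. PU.1 is an Ets factor that marks myeloid enhancers from the precursor onward. MITF, which binds E-box sequences as a dimer, physically interacts with PU.1, and Acp5, Ctsk and Clcn7 are classic targets of the pair.

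The score of each peak is its number of sequenced fragments (tags) scaled to a common library size, and dividing by the value of 1 tag returned whole tags to within 0.0511 score units. The 3 PU.1 lists hold 71941 to 77072 peaks with medians of 14 to 16 tags, and the 3 MITF lists hold 3540 to 5413 peaks with medians of 10 to 24 tags. The lowest peak had 6 or 7 tags in the PU.1 lists and 8 to 10 in the MITF lists, which is the smallest signal they can show. PU.1 peaks at 36 h are 190 bp wide at the median against 150 bp in MPs and OCs, and MITF peaks at 36 h reach 1387 bp where those of the other MITF lists are all 150 bp. Values at 36 h were therefore not collected over the same width. No peak of the IgG list, which holds 349, lay in the 10 windows, although its implied depth of 3120000 tags is below the 5860000 to 10270000 of the others.

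The sequence beneath the leading site of each gene is shown first, because these sites carry most of the MITF signal described below. For the 7 genes with a MITF peak it is the site with the most MITF tags, and for Clcn7, Ostm1 and Snx10, which have none, the site with the most PU.1 tags. Each is the whole PU.1 OC peak on the plus strand of the mm9 reference, named with its distance from the start of the gene. Capitals mark GAGGAA, a form of the Ets core GGAA that PU.1 binds, and its longer form GAGGAAGT. They also mark the E-boxes CACGTG and CATGTG that MITF and its relatives recognise, and the AP-1 motif TGANTCA. All marked motifs were searched on both strands, and every GAGGAAGT also counts as a GAGGAA. The core GGAA by itself was not searched. A site with no match can therefore still hold it, as those of Mmp9 and Plekhm1 do. The coordinates are chr3:95325215-95325365 for Ctsk, chr9:21924007-21924157 for Acp5, chr2:164768501-164768651 for Mmp9, chr14:55061486-55061636 for Mmp14, chr3:14880464-14880614 for Car2, chr19:3914641-3914791 for Tcirg1, chr17:25254260-25254410 for Clcn7, chr10:42399612-42399762 for Ostm1, chr11:103243302-103243452 for Plekhm1 and chr6:51508420-51508570 for Snx10.
Ctsk, 22.1 kb downstream: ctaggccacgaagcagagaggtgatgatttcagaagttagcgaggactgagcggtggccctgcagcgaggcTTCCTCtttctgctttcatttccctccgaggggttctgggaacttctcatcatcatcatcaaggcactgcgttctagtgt
Acp5, 16.1 kb downstream: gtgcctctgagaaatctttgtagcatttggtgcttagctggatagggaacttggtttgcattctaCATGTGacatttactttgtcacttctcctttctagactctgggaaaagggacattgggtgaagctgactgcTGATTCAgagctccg
Mmp9, 2.30 kb downstream (no match): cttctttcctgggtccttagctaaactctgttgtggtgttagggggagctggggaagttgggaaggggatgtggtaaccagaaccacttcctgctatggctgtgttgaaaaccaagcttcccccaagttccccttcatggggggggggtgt
Mmp14, 11.1 kb downstream: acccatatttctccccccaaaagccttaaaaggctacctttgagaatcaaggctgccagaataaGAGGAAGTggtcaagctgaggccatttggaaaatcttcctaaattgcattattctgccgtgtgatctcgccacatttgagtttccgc
Car2, 5.88 kb upstream: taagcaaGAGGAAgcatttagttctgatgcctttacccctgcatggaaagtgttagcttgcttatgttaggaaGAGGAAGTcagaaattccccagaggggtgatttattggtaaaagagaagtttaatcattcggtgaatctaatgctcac
Tcirg1, 7.58 kb upstream: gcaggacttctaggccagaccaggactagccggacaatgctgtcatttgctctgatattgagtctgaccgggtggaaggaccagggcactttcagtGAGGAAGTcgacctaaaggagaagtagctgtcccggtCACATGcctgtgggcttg
Clcn7, 16.0 kb upstream: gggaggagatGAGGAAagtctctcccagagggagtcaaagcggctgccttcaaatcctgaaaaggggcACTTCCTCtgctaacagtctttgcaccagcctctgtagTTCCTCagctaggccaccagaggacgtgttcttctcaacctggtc
Ostm1, 96.1 kb downstream: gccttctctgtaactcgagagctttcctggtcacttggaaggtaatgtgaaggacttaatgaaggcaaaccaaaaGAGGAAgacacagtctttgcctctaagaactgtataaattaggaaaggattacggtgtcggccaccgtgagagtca
Plekhm1, 30.6 kb downstream (no match): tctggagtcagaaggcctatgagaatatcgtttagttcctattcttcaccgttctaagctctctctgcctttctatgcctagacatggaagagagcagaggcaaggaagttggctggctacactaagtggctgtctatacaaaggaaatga
Snx10, 34.6 kb downstream: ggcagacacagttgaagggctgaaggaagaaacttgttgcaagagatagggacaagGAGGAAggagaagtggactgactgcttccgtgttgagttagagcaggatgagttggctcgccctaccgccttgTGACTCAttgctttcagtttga

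GAGGAA and the E-box were present in PU.1 peaks at these genes in shares whose intervals hold those over all PU.1 peaks. Within 75 bp of the center, 78 of 151 PU.1 OC peaks in the windows held GAGGAA (51.7%, Wilson 95% interval 43.7 to 59.5), against 55.8% of all PU.1 OC peaks, and 27 held GAGGAAGT (17.9%, 12.6 to 24.8), against 22.3%. An E-box was present in 25 of them (16.6%, 11.5 to 23.3), against 13.2% of all, and TGANTCA in 9 (5.96%, 3.17 to 10.9), against 8.57%. Of the 11 MITF OC peaks, 6 held GAGGAA, 4 held GAGGAAGT and 3 held an E-box, where the shares over all MITF OC peaks were 67.2%, 30.9% and 11.8%. Over the 15 sites with a MITF peak in any list, GAGGAA was found at 9, CATGTG at 3 and CACGTG at 0, which for 15 sites leaves a Wilson interval up to 20.4%. The 3 with CATGTG are the Acp5 site and the Tcirg1 site printed above and a second Ctsk site 27.5 kb downstream of the gene's start. At 5 of the 15 sites no motif searched was present, among them the printed sites of Mmp9 and Plekhm1.

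PU.1 peaks lay in all 10 windows at all 3 times, as they did in the windows of 18631 to 18748 of 22367 protein-coding genes. The peaks were mostly away from the promoters of the 10 genes themselves, but so is most of each window. The share away from the gene's own start was not counted for the windows of other genes. The windows held 146 PU.1 peaks in MPs, 133 at 36 h and 151 in OCs, and between 4 in OCs at Car2 and 33 in OCs at Plekhm1. Per 100 kb the median gene had 12.4 PU.1 peaks in MPs, 10.5 at 36 h and 12.2 in OCs, where the median over all protein-coding genes was 4.72, 4.64 and 4.85. For 26 other genes of the pathway, described below, the median was 9.34, 9.13 and 9.53, so a value above that of all genes is not particular to the 10. Of the 180 sites, 83 lay in introns, 77 between genes and 20 in exons, and 155 were over 3 kb from any GENCODE start site of the gene itself. The windows hold other genes too, and 104 sites were over 3 kb from every annotated start site. For 88 of the 180 the nearest protein-coding start was that of the resorption gene. In OCs 58.3% of the PU.1 peaks in the windows (50.3 to 65.8) were over 3 kb from any start, against 73.3% of all PU.1 OC peaks. The corresponding figure for MITF in OCs was 5 of 11 (45.5%, 21.3 to 72.0), against 78.2%, and at 36 h it was 2 of 8 (25%, 7.15 to 59.1), against 76.1%.

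The strongest PU.1 sites were seldom at the start of the resorption gene itself, though several lay near a start of another gene. Within 1 kb of a start site of the gene lay 14 sites at 8 of the genes, of which 7 were in all 3 PU.1 lists, and the median of their highest tag counts was 15. Mmp14 and Car2 had no such site. In 8 of 10 genes the site with the most PU.1 tags was over 3 kb from every start of the gene. The same count was not made for other genes, and most of each window lies that far from the gene's start. The leading sites of the 10 genes reached 36 to 166 tags. At the edge of the window rule, a Plekhm1 site 49.6 kb beyond the gene had 14, 9 and 7 PU.1 tags in MPs, at 36 h and in OCs and was kept, and an Mmp14 site 51.2 kb beyond the gene had 12, 10 and 14 and was not.

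**Figure D1:**
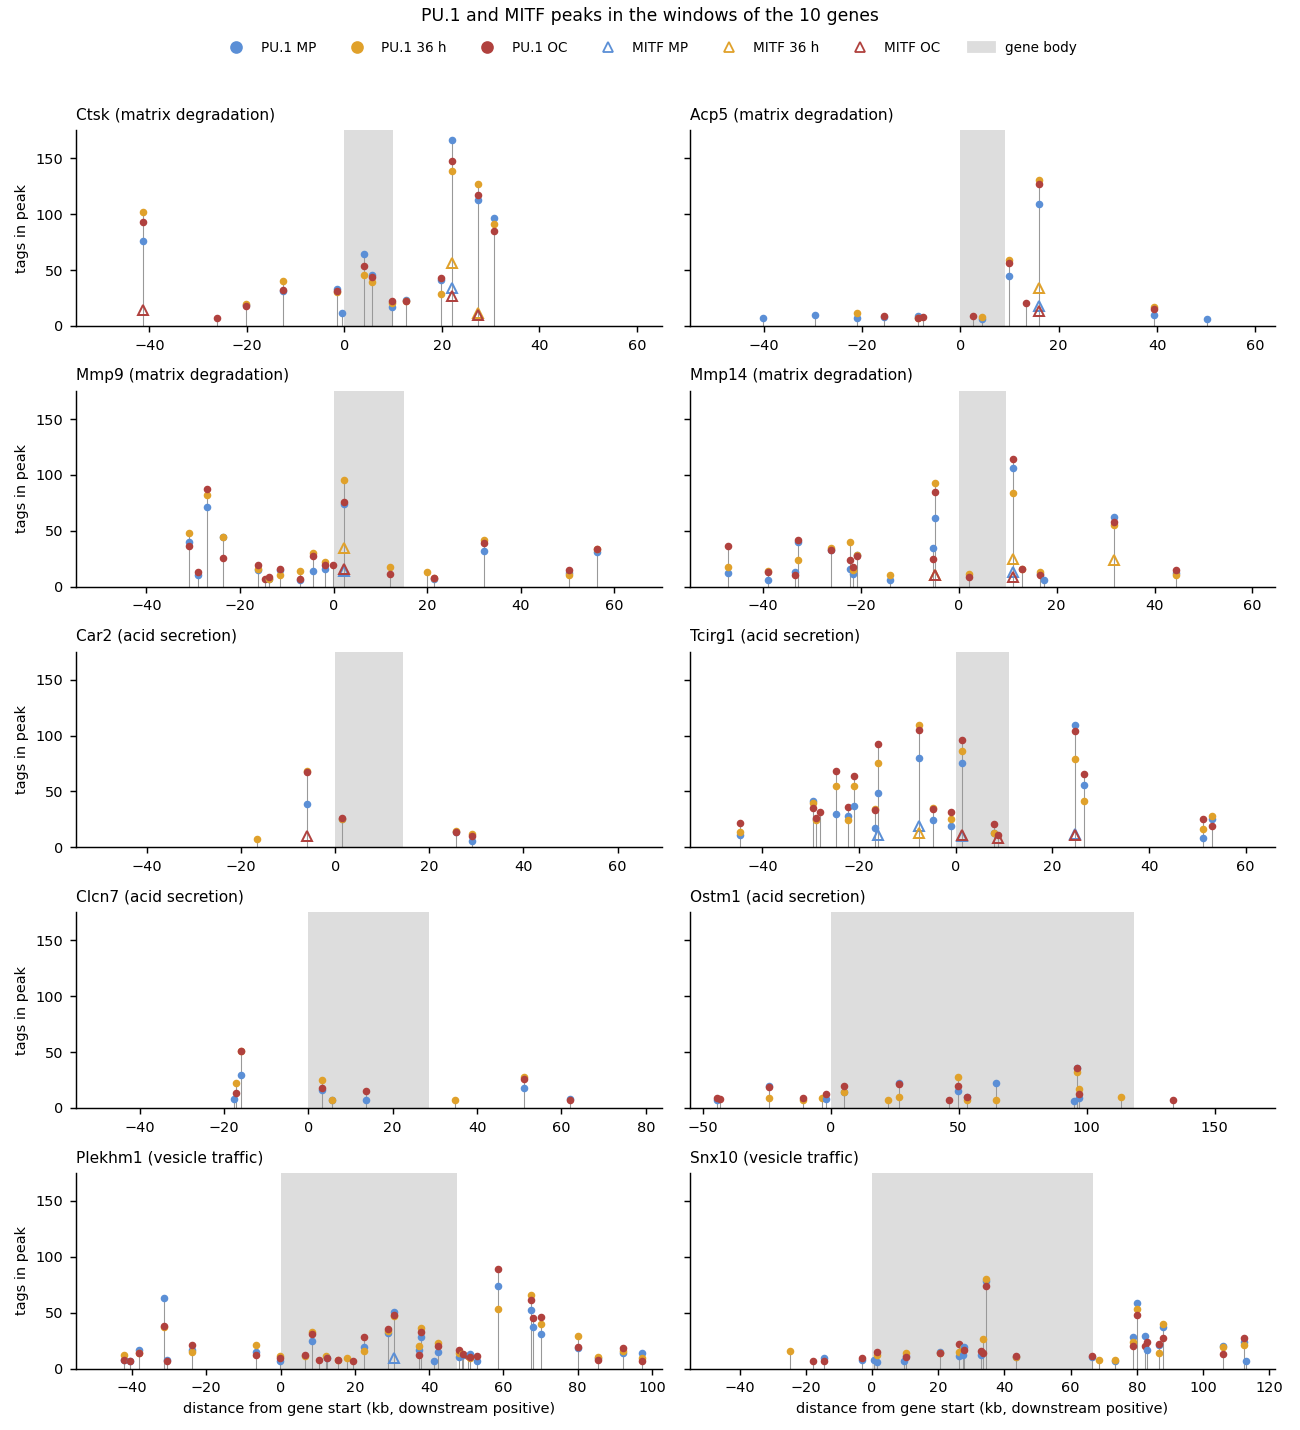
Tags in each peak (y axis) against distance from the gene start in kb (x axis, downstream positive) for the 10 genes. Circles are PU.1 peaks and open triangles MITF peaks, colored by time, and the grey band is the gene body. The tallest stems of Ctsk, Acp5 and Mmp14 stand beyond the 3′ end of the gene, and no triangle appears at Clcn7, Ostm1 or Snx10.

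MITF was found at 15 sites in 7 of the 10 genes, and 12 of the 15 were over 3 kb from a start site of the gene and 7 of the 15 over 3 kb from every start site. Most of each window is over 3 kb from the gene's start, and the first count was not made for other genes. A MITF peak lay in the window of 6 genes in MPs, 5 at 36 h and 6 in OCs, where 32.1%, 24% and 28.8% of all protein-coding genes had one in a window of the same reach. Over the 3 lists together it was 7 of 10 genes, against 40.2% of all. Every MITF peak in the windows, 9 in MPs, 8 at 36 h and 11 in OCs, overlapped a PU.1 peak of the same time, as did 97.9%, 93.8% and 93.3% of all MITF peaks. At 11 of the 15 sites the nearest protein-coding start belonged to another gene, so which gene a site serves cannot be told from position. Only 4 sites were in all 3 MITF lists, 1 each in the windows of Ctsk, Acp5, Mmp9 and Mmp14, which are genes of matrix breakdown. As a share of MITF sites this was 26.7% (10.9 to 52.0), against 26.1% of all MITF sites, which lies within that interval. Those in the windows of Ctsk, Acp5 and Mmp14 were nearest to Ctss, Elof1 and Gm11067. Windows of proton pump genes counted below, such as Atp6v0a1, Atp6v0c and Atp6v0d2, also held MITF peaks at each of the 3 times. Whether those were the same site each time was not examined. The Tcirg1 window held 4, 1 and 3 MITF peaks and yet 0 sites in all 3 lists. It therefore cannot be said that the trait is particular to matrix breakdown.

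**Figure D2:**
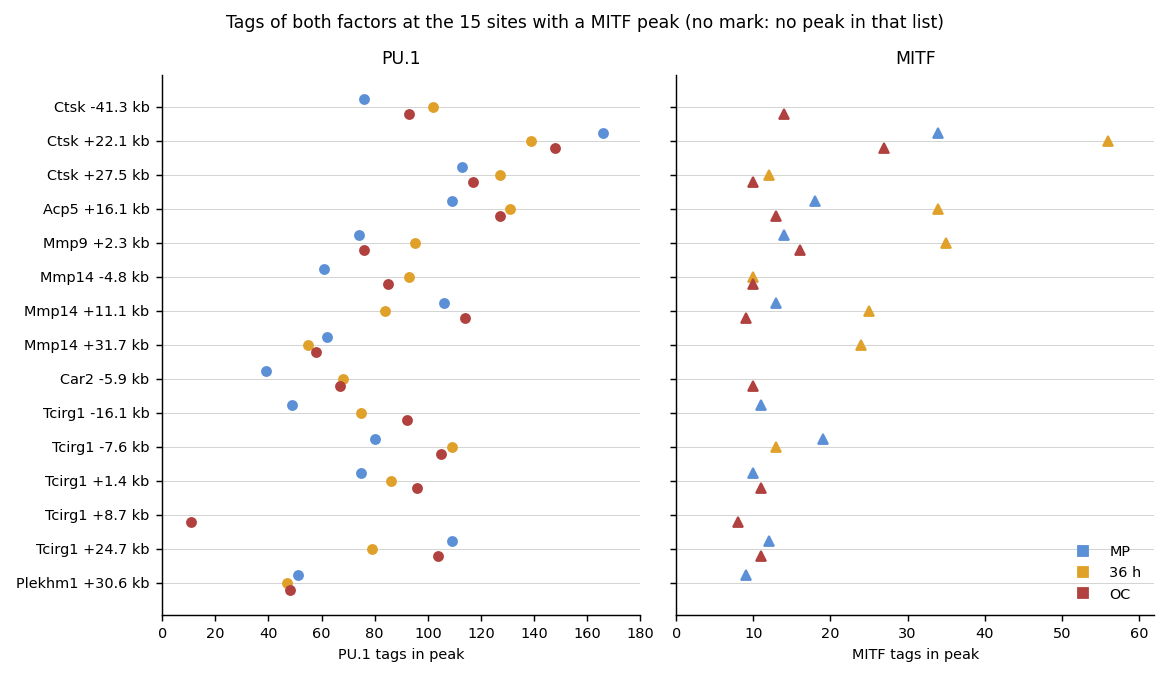
PU.1 tags (left) and MITF tags (right) at the 15 sites with a MITF peak, 1 row per site named by gene and distance from its start, with MPs in blue, 36 h in yellow and OCs in red. A time without a mark has no peak in that list. MITF marks at all 3 times stand in 4 rows, and PU.1 marks at all 3 times in every row but the Tcirg1 site at 8.7 kb.

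Cathepsin K, encoded by Ctsk, is the cysteine protease that cleaves collagen in the resorption pit. Its strongest site lay 22.1 kb downstream of its start, between Ctsk and Ctss and 5.41 kb upstream of the latter, which encodes cathepsin S. There PU.1 gave 166 tags in MPs, 139 at 36 h and 148 in OCs, the highest of the 180 sites, and MITF gave 34, 56 and 27 tags, again the highest. Both factors were thus present before RANKL was added. From MPs to OCs the log2 change of PU.1 relative to the median pair was -0.36 (95% interval -0.69 to -0.03), which was not called (exact binomial test, adjusted p = 0.554 over all pairs), and that of MITF was -0.09 (-0.88 to 0.68). The site 27.5 kb downstream sits at the start of Ctss and had 113, 127 and 117 PU.1 tags, with MITF at 12 tags at 36 h and 10 in OCs and none listed in MPs. Another MITF site, 41.3 kb upstream in an intron of Arnt, had 76, 102 and 93 PU.1 tags and a MITF peak in OCs alone, of 14 tags. Inside the gene, 3.95 kb from the start, PU.1 had 64, 46 and 54 tags. At the Ctsk start itself 1 PU.1 peak of 12 tags was listed in MPs and none later. The segment amplified by the study's conventional ChIP assay for PU.1, chr3:95301733-95301808, lay in a PU.1 peak of 33, 30 and 31 tags. No MITF peak was closer to it than 23.4 kb.

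Acp5 encodes tartrate-resistant acid phosphatase (TRAP), the enzyme whose stain identifies OCs. Its window had few strong sites, and 1 of them carried both factors. That site, 16.1 kb downstream of the start and beyond the 3′ end of the gene, lay 2.50 kb upstream of Elof1 and had 109, 131 and 127 PU.1 tags. MITF there had 18 tags in MPs, 34 at 36 h and 13 in OCs, a log2 change from MPs to OCs of -0.23 (-1.38 to 0.88). A PU.1 site 9.94 kb downstream had 45, 59 and 56 tags. Near the start of a shorter Acp5 transcript PU.1 had 6 tags in MPs, 8 at 36 h and no peak in OCs. The amplified segment of the conventional assay, chr9:21937490-21937600, overlapped 1 peak of the 6 lists, PU.1 in OCs with 9 tags. A peak of 21 tags 13.4 kb downstream was listed in OCs and at neither earlier time.

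Mmp9 and Mmp14 encode a secreted gelatinase and a membrane-bound collagenase. The Mmp9 site 2.30 kb downstream of the start, in an intron, was the nearest to its own start of the 4 sites bound by MITF at every time. It had 74, 95 and 76 PU.1 tags and 14, 35 and 16 MITF tags. At the Mmp9 start, 0.091 kb upstream, PU.1 was listed in OCs alone, with 19 tags. Among Mmp9 pairs of at least 30 tags, the largest PU.1 difference between MPs and OCs was 23.7 kb upstream near Zfp335, with 44, 44 and 26 tags, a log2 change from MPs to OCs of -0.95 (-1.71 to -0.22, adjusted p = 0.336 in the exact binomial test).

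At Mmp14 the leading site was 11.1 kb downstream, just beyond the 3′ end of the gene, with 106, 84 and 114 PU.1 tags and 13, 25 and 9 MITF tags. Mmp14 also had MITF at the start of Mrpl52, 4.81 kb upstream, with 10 tags at 36 h and 10 in OCs over 61, 93 and 85 PU.1 tags. Its last MITF peak, 0.882 kb upstream of Lrp10, was listed at 36 h alone with 24 tags, where PU.1 had 62, 55 and 58. A site 47.2 kb upstream in an intron of Slc7a7 had 12, 18 and 36 PU.1 tags, a log2 change from MPs to OCs of 1.39 (0.42 to 2.47, adjusted p = 0.245 in the exact binomial test). For all 12 Mmp14 sites that PU.1 held at every time, another protein-coding gene was nearer.

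Carbonic anhydrase 2, encoded by Car2, supplies the protons that the OC pumps out. Its window was the sparsest, with 5 sites. The site 5.88 kb upstream had 39, 68 and 67 PU.1 tags, the fewest in MPs, and a MITF peak of 10 tags in OCs and at neither earlier time. Its PU.1 log2 change from MPs to 36 h was 0.72 (0.13 to 1.33, adjusted p = 0.265 in the exact binomial test), and from MPs to OCs it was 0.59 (-0.0026 to 1.2, adjusted p = 0.640). No other protein-coding start was nearer to this site.

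Tcirg1 encodes the a3 subunit of the proton pump and had the most MITF sites, 5, of which none was in all 3 MITF lists. The site 7.58 kb upstream of the start had 80, 109 and 105 PU.1 tags, with MITF at 19 tags in MPs and 13 at 36 h and no peak in OCs. At 16.1 kb upstream, in an intron of Aldh3b1, PU.1 had 49, 75 and 92 tags, and MITF 11 tags in MPs alone. The site 24.7 kb downstream in an intron of Chka had 109, 79 and 104 PU.1 tags and MITF at 12 in MPs and 11 in OCs. Inside the gene, 0.508 kb upstream of a shorter transcript, PU.1 had 75, 86 and 96 tags, and MITF 10 in MPs and 11 in OCs. A last site, 8.66 kb into the gene, was listed in OCs alone with 11 PU.1 tags and 8 MITF tags, the lowest MITF peak of the 15 sites. These MITF counts of 8 to 19 tags lie near the 8 to 10 tags of the lowest peak of each MITF list, and whether a peak listed at 1 time and not at another differed in tags was not tested. Among Tcirg1 pairs of at least 30 tags, the largest PU.1 difference between MPs and OCs was 51.2 kb downstream in another intron of Chka, with 8, 16 and 25 tags, a log2 change from MPs to OCs of 1.45 (0.26 to 2.81, adjusted p = 0.403 in the exact binomial test). Further start-site peaks of PU.1 had 19, 25 and 32 tags 0.983 kb upstream of the start and 13, 13 and 21 tags 0.314 kb upstream of another transcript.

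Clcn7 encodes the chloride-proton exchanger of the ruffled border and Ostm1 its partner subunit. No MITF peak was listed in either window at any time, although Clcn7 is named above among the targets of PU.1 and MITF. A missing peak does not show that MITF was absent, and whether depth bears on this was not tested. Clcn7 had its highest site 16.0 kb upstream, 1.42 kb from Telo2, with 29, 51 and 51 PU.1 tags. A PU.1 peak 0.045 kb from a Clcn7 transcript start had 16, 25 and 18 tags, and 1 near another start had 7 in MPs and 15 in OCs. Ostm1 had its highest site at a start, 0.919 kb into a shorter transcript, with 36, 32 and 36 tags. An Ostm1 site 5.22 kb downstream had 14, 14 and 20 tags and a peak of 6 tags near a start was listed in MPs alone.

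Plekhm1, an adaptor for late endosomes and lysosomes, had the most sites, 37, and Snx10, a sorting nexin of endosomes, had 28. The Plekhm1 site with the most PU.1 tags lay 58.4 kb downstream in Arhgap27, with 74, 53 and 89. MITF was listed once, in MPs with 9 tags, 30.6 kb downstream in an intron of Plekhm1, where PU.1 had 51, 47 and 48 tags. A site 31.4 kb upstream had 63, 37 and 38 PU.1 tags, a log2 change from MPs to OCs of -0.92 (-1.54 to -0.32, adjusted p = 0.191 in the exact binomial test). The start of Plekhm1 had 7, 11 and 9. For Snx10 the highest site, 34.6 kb downstream in an intron, had 78, 80 and 74 PU.1 tags. Its shorter transcript had 15, 14 and 14 PU.1 tags at the start, and the longer one 8 tags in MPs alone. A Snx10 site 106.0 kb downstream had 20, 19 and 13. No MITF peak was listed for Snx10, although its 28 sites exceeded those of every gene but Plekhm1.

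The sites with MITF were those with much PU.1. PU.1 peaks with a MITF peak had a median of 80 tags in MPs, 102 at 36 h and 96 in OCs, and those without had 15, 18 and 19. A MITF peak was present at 9 of 146 PU.1 peaks in MPs (6.16%, 3.28 to 11.3), against 6.95% of all PU.1 peaks, at 8 of 133 at 36 h (6.02%, 3.08 to 11.4), against 4.62%, and at 11 of 151 in OCs (7.28%, 4.12 to 12.6), against 5.38%. Each interval holds the share over all peaks. Among PU.1 peaks of at least 100 tags the share was 4 of 5 in MPs, 4 of 5 at 36 h and 5 of 6 in OCs, where it was 83.3%, 68.3% and 66.9% over all peaks. Below 20 tags it was 0 of 85, 0 of 64 and 1 of 75. In 5 of the 7 genes with MITF, the site with the most PU.1 tags was also that with the most MITF tags, and at Tcirg1 that site tied for the most PU.1 tags, 109, with the one 24.7 kb downstream.

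**Figure D3:**
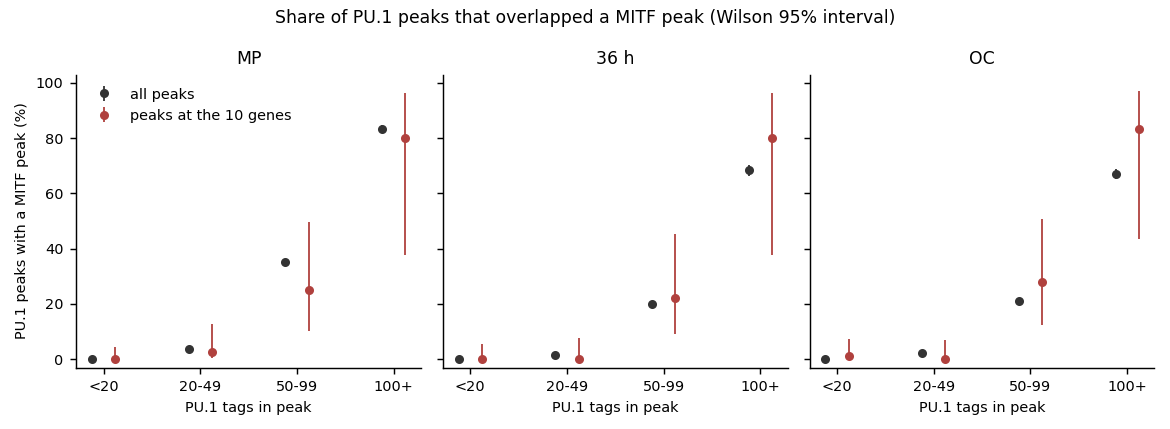
Share of PU.1 peaks that overlapped a MITF peak (y axis, percent) by the number of PU.1 tags in the peak (x axis) in MPs, at 36 h and in OCs. Red points are the peaks at the 10 genes and black points all peaks, with Wilson 95% intervals. Both rise from near 0 below 20 tags to 80.0% or more at the 10 genes in the highest class, and the intervals of the red points hold the black points except in OCs below 20 tags, where 1 of 75 stands against 0.0741%.

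PU.1 occupancy was largely in place before RANKL. In all 3 PU.1 lists were 107 of the 180 sites (59.4%, 52.1 to 66.3), against 50.5% of all PU.1 sites, and their median highest count was 28 tags. Another 36 sites were in 2 lists and 37 in 1, the latter with a median of 8 tags, close to the lowest peak a list can hold. MPs alone held 11 (6.11%, against 11.1% of all PU.1 sites), 36 h alone 11 (6.11%, against 9.03%) and OCs alone 15 (8.33%, against 10.3%). In MPs and OCs but not at 36 h were 21 (11.7%, against 8.27%), of which 8 had another 36 h peak within 1 kb, and whether the wider peaks of that list bear on this was not tested. Among PU.1 OC peaks of at least 15 tags, 3 of 96 had no PU.1 peak at the earlier times, against 2.35% of all such peaks. These 3 are the Acp5 peak of 21 tags and the Mmp9 start peak of 19 tags given above and a peak of 32 tags at the start of Unc93b1, 28.1 kb upstream of Tcirg1.

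No single PU.1 or MITF peak at these genes was called changed between times. Tags at overlapping peaks of 2 lists were compared by an exact binomial test against the median ratio of all pairs, and calls needed a 2-fold change or more besides an adjusted p under 0.05. This compares 2 libraries and not the conditions. PU.1 pairs from MPs to OCs had a median of only 41 tags over both lists, so 0 calls do not show that occupancy was unchanged. For PU.1, 0 of 128 pairs were called between MPs and OCs, against 0.156% of all pairs, and 8 had an unadjusted p under 0.05 (7.84% of all pairs did), 5 with more tags in OCs and 3 with fewer. Between MPs and 36 h it was 0 of 114, against 1.05% of all, with 18 under the unadjusted threshold (10.9% of all), and between 36 h and OCs 0 of 115, against 0.0707%, with 5 (6.45% of all). The log2 changes from MPs to OCs ran from -1.19 to 1.45 with a median of -0.02. The lowest adjusted p in the exact binomial test was 0.179 from MPs to OCs, 0.114 from MPs to 36 h and 0.523 from 36 h to OCs. The first was at a site 24.7 kb upstream of Tcirg1 with 30 tags in MPs and 68 in OCs, picked out after the values were seen.

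**Figure D4:**
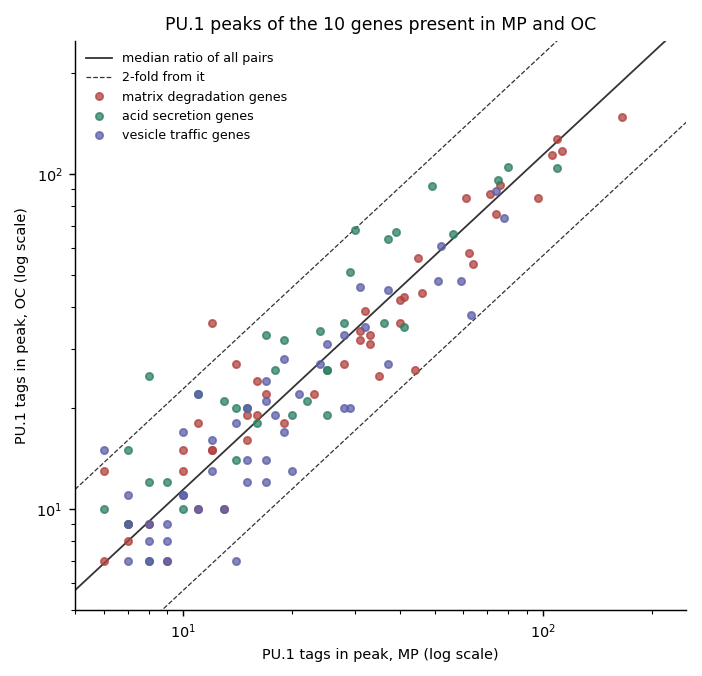
PU.1 tags in OCs (y axis, log scale) against MPs (x axis, log scale) for the 128 pairs of the 10 genes, colored by role. The solid line is the median ratio of all 60099 pairs and the dashed lines are 2-fold from it, and the few points beyond the dashed lines have at most 36 tags in either list.

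For MITF, 0 of 6 pairs were called between MPs and OCs, against 0% of all pairs, and 0 had an unadjusted p under 0.05, as 3.23% of all pairs did. The figures between MPs and 36 h were 0 of 5, against 15.2% of all, with 1 under the unadjusted threshold (29.6% of all), and between 36 h and OCs 0 of 6, against 9.66%, with 0 (25.2% of all). The pair under the threshold was the Tcirg1 site 7.58 kb upstream, with a log2 change from MPs to 36 h of -1.34 (-2.48 to -0.25, adjusted p = 0.0543 in the exact binomial test). Comparisons with MITF at 36 h depend on the scale: the median pair had 1.74 times the tags at 36 h where the implied library sizes differ by 1.07 times, a shift of 0.70 on the log2 scale. At the leading Ctsk site the log2 change of MITF from MPs to 36 h is -0.08 on the first scale and 0.63 on the second, so no direction is given for it. The change of -1.34 at the Tcirg1 site is -0.64 on the second scale. On the second scale 1 pair was called from MPs to 36 h, the Mmp9 intron site with 14 and 35 tags (log2 1.23), and 1 from 36 h to OCs, the leading Acp5 site with 34 and 13 tags (log2 -1.16).

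Summed over each window, PU.1 tags passed the test at 1 of 10 genes from MPs to OCs (Tcirg1) and at 1 of 10 from MPs to 36 h (Clcn7), and both calls were lost with the implied library sizes. This comparison was added after the single peaks had been seen. Tags were summed over the sites in all 3 PU.1 lists and tested against the ratio over all such sites, with adjustment over 17852 genes whose windows overlap. At Tcirg1 the 17 sites held 647 tags in MPs, 753 at 36 h and 878 in OCs, a log2 change from MPs to OCs of 0.30 (0.15 to 0.44, exact binomial test, adjusted p = 0.0121). In this comparison 2.3% of all genes passed, and 13 of the 17 sites had more tags in OCs than that ratio gives. The 3 sites nearest to Tcirg1 itself went from 107 to 149 tags and the 14 nearest to other genes from 540 to 729, and without its highest site the change is 0.30 (exact test, adjusted p = 0.0178). With the implied library sizes in place of the ratio over all sites, it is 0.22 and not called (exact test, adjusted p = 0.0708). At Clcn7 the 3 sites held 63 tags in MPs, 104 at 36 h and 95 in OCs, a log2 change from MPs to 36 h of 0.70 (0.24 to 1.18, exact test, adjusted p = 0.0379), where 7.86% of all genes passed. It was not called with the implied library sizes (0.52, exact test, adjusted p = 0.115), with the median ratio of pairs (0.64, adjusted p = 0.0635) or without the highest site (0.62, adjusted p = 0.230). From 36 h to OCs no gene of the 10 passed, against 1.03% of all, and the exact binomial p was under 0.05 before adjustment for Mmp9 alone. Car2 had 84, 120 and 117 tags over 4 sites (MPs to OCs 0.33, -0.08 to 0.75), and Ctsk had 726, 706 and 709 over 12 (-0.18, -0.33 to -0.03, exact test, adjusted p = 0.208).

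**Figure D5:**
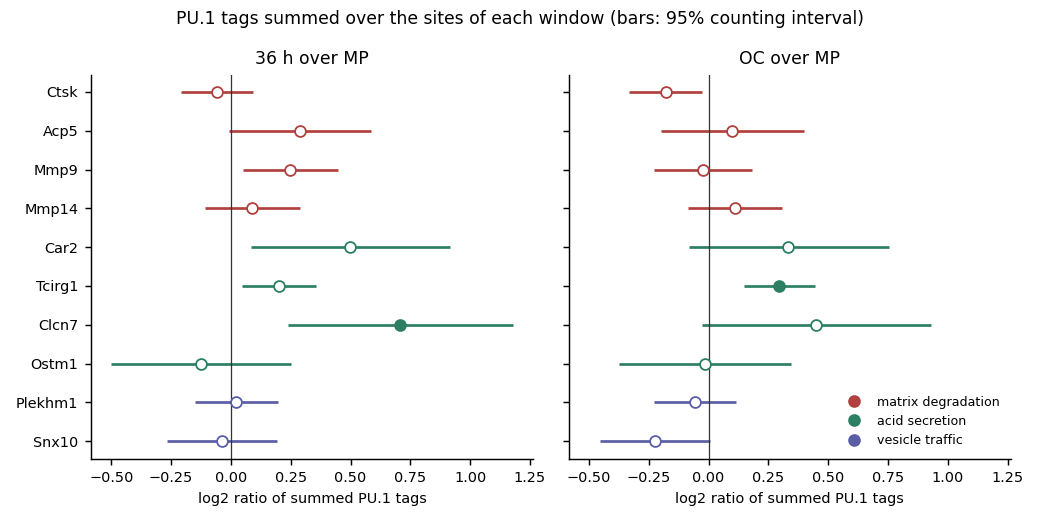
Log2 ratio (x axis) of the PU.1 tags summed over the sites of each gene window, 36 h over MPs (left) and OCs over MPs (right), relative to the ratio over all sites, with 95% counting intervals. Filled points passed the test over all genes, Clcn7 at 36 h and Tcirg1 in OCs, and the calls depend on the scale as given in the text.

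The other genes of the pathway, from a list of 26 with further subunits of the proton pump, lysosomal proteases, metalloproteases and lysosome proteins, were counted in the same way. PU.1 peaks lay in all 26 windows at every time, 1 to 22 per window. MITF peaks lay in 17 windows in MPs, 14 at 36 h and 16 in OCs, where 32.1%, 24% and 28.8% of all protein-coding genes had one. Over the 3 lists it was 22 of 26 windows, against 40.2% of all genes, and 4 windows, those of Atp6v1a, Atp6v1h, Mmp13 and Syt7, had none. The Ctss window shares its MITF sites with that of Ctsk, so the lists are not independent.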

How the data were processed

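The authors mapped ChIP-Seq reads with Bowtie2 to mm9 after CASAVA 1.8, called peaks with HOMER and deposited 1 list per library. The deposited score is the number of tags in a peak scaled to a common library size, and neither the versions of Bowtie2 and HOMER nor how peaks were called in detail is given in the sources used here. Reads were not analysed, so no peak was called again. If scores are scaled to 10000000 tags, the default of HOMER, the libraries held 3120000 to 10270000 tags.

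Tags were recovered as whole multiples of the lowest step of the scores. Genes, transcripts and exons came from GENCODE M1 and sequences from the NCBIM37 (mm9) genome. Peaks that shared 1 bp or more were matched and chained into sites. Pairs were mutual nearest peaks, tested by a two-sided exact binomial test with Benjamini-Hochberg adjustment over all pairs of the genome. Shares have 95% Wilson intervals. The 10 genes, the lists and the tests were chosen with earlier results of these data known. Named sites were, for each gene, that with the most PU.1 tags, those within 1 kb of a start, up to 4 with MITF, any in a called pair and that with the largest MP to OC fold among pairs of at least 30 tags. Sites given outside this rule were chosen after their values were seen. The 2 segments of the conventional ChIP assays were placed by an exact match of their primers. Alternatives were a stricter score threshold, removal of IgG peaks, windows of 25 and 100 kb, other overlaps, coding genes only, another ratio and a wider motif window. The pair test was checked on simulated data. Python 3.11.15, numpy 2.4.6, scipy 1.17.1, pysam 0.24.0 and matplotlib 3.10.9 were used.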

Additional observations from a re-analysis of the deposited data

How the results depend on the processing

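No paired analysis was possible because each condition has 1 library. Of 133 values recomputed under other settings, 120 stayed within 1.5 times the count or within the 95% interval of the value reported. This tally is generous. Values without IgG peaks could not move, as 0 IgG peaks lay in the windows, and the intervals of MITF shares are wide. Outside it are 55 unplanned values, of which 3 reversed and 4 lost their call. Under a score of at least 2 times the lowest, PU.1 peaks in the windows numbered 97 in MPs and 100 in OCs, MITF peaks 3, 5 and 2 over the 3 times, genes with MITF 3 in MPs and 2 in OCs, and PU.1 peaks with MITF 3.09% in MPs and 2% in OCs, since the threshold removes the weakest peaks. In windows of 100 kb MITF peaks in MPs numbered 14, and 1 MITF pair was called between MPs and 36 h, 78.0 kb upstream of Mmp9 with 82 and 298 tags. With the library size ratio 1 MITF pair was called between MPs and 36 h (Mmp9 2.29 kb downstream, log2 1.23, adjusted p = 0.0199) and 1 between 36 h and OCs (Acp5 16.1 kb downstream, log2 -1.16, adjusted p = 0.0326), both by the exact binomial test. That ratio, added after the data were seen for single sites, also reversed MITF at the leading Ctsk site from MPs to 36 h (0.63) and from 36 h to OCs (-0.82) and at the Ctss start from 36 h to OCs (-0.033). The summed tags of Tcirg1 and Clcn7 lost their calls as given in the report. Of the 28 MITF peaks in the windows, 8 had 10 tags or fewer, near the lowest listed.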
